A study of Mus musculus with 26 samples.

Results

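Hepatocyte identity rests on a small set of DNA-binding proteins, and 9 of their genes were followed here through mouse liver RNA-seq: Hnf4a, Foxa1, Foxa2, Foxa3, Cebpa, Cebpb, Prox1, Nr5a2 and Onecut1. The rows of the deposited count table were picked by gene name through their Ensembl ID. The rule has no measured threshold, but the 9 names were proposed with earlier results of these data known. All 9 were found among 55642 genes, and all 9 passed the filter on low counts that left 17104 genes for testing. The 26 libraries came from 4 groups. Wildtype mice on control chow gave 5 libraries. Wildtype mice given CDAHFD, a high-fat diet built from single amino acids without choline that brings on fatty liver disease, for 2 weeks gave 6. Mice on the same diet gave 7 libraries with a heterozygous and 8 with a homozygous knockout of Mtarc1, which encodes a molybdenum enzyme of the outer mitochondrial membrane. The labels give no strain, sex, age or knockout allele and do not say that each sample was a separate animal, and p-values therefore reflect only sample-to-sample spread, which may be technical. Knockout liver on chow was not analysed here, so the genotype comparisons apply to the CDAHFD only.

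In hepatocytes these factors occupy each other's promoters and enhancers as well as those of the genes for plasma proteins and metabolic enzymes. HNF4A is a nuclear receptor needed for much of the adult hepatocyte programme, the FOXA proteins are forkhead pioneer factors that open chromatin, and C/EBP alpha and beta are leucine zipper factors tied to metabolism and to the acute-phase response. PROX1 is a homeodomain protein of hepatocytes and lymphatic endothelium, NR5A2 (LRH-1) is a nuclear receptor of bile acid and cholesterol genes, and ONECUT1 (HNF6) is a cut-homeodomain protein of hepatocytes and bile duct cells.

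Total estimated counts were 19.73 to 29.91 M (mega counts) per library, so the rarest of the 9 genes, Onecut1, still had 117 to 1253 counts in a library. Mtarc1 itself stood at 264 to 361 CPM (counts per M of library size, scaled by the TMM method) in wildtype chow, 193 to 291 in wildtype CDAHFD, 112 to 208 in heterozygous and 33.4 to 65.3 in homozygous libraries, and the homozygous group overlapped with no other. The 10 hepatocyte markers, albumin among them, were detected in every library. Mitochondrially encoded genes took 6.24% to 16.25% of the counts. Library names fall into a lower and a higher number range, with 9 and 17 libraries. The labels do not call these ranges batches, and values within them are given for some of the genes below.

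Promoter sequence was matched for all 9 genes in RefSeq (build GRCm38.p6, an older build than that of the counts), with 14 start sites in all. The stretches below are shown because the results turn on these genes: both Hnf4a starts, of which the upstream one lies inside an antisense gene that fell on the diet, the start of Foxa3, which fell on the diet, and the first start of Foxa2, whose level moved with that of Onecut1. Each is read 5′ to 3′ on the gene's strand, ends at or before the base in front of the start and leaves out any bases in an annotated GENCODE exon. Capitals mark a match to 1 of 6 motifs searched on both strands in the 250 bases before each start.
Hnf4a upstream start, chr2:163506607-163506807, plus strand, with capitals at an Onecut core ATCAAT: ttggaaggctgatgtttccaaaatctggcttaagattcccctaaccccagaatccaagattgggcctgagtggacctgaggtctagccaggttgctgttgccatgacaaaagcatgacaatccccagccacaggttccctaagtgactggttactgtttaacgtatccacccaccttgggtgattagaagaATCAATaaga
Hnf4a downstream start, chr2:163546943-163547154, plus strand, with no match and so no capitals: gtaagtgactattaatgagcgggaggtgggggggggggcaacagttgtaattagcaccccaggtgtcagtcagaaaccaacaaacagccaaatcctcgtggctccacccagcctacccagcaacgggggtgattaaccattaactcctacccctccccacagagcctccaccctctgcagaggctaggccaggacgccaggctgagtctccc
Foxa3, chr7:19023540-19023789, minus strand, with capitals at a TATA box TATAAA: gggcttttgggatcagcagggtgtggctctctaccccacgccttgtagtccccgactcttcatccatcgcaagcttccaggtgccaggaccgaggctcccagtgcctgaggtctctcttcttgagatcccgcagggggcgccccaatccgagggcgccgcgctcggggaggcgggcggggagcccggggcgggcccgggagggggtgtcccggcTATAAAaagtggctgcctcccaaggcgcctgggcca
Foxa2 first start, chr2:148046970-148047219, minus strand, with capitals at an Onecut core on the opposite strand: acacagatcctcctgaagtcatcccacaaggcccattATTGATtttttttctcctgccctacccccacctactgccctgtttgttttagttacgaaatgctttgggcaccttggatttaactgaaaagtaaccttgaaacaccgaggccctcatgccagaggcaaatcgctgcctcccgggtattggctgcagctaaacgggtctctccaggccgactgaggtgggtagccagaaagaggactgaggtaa

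The TATA box letters TATAAA were in 5 of the 14 windows and in 12.4% of all 32851 RefSeq promoter windows of the same length. On the gene's strand they ended 31 bases before the Foxa3 start and 25 before the Cebpa start, and on the opposite strand they occurred at Prox1, Nr5a2 and Foxa2. The Onecut core ATCAAT was present in 6.72% of all windows and in 2 of the 14 here, the Hnf4a upstream start and the first of 3 Foxa2 starts. Whether these letters bear on the level of either gene was not tested. The forkhead motif TGTTTAC (3.17% of all windows) was found at Foxa1 alone, and the C/EBP motif TTGCNNAA (9.56%) at Nr5a2 alone. The HNF4A motif CAAAGTC (3.84%) and the NR5A2 motif AAGGTCA (4.08%) had no match in the 14 windows, which says only that these letters are not there. No 2 motif matches overlapped in the stretches shown.

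Per kilobase of exon in GENCODE, the chow levels of the 9 genes fell into a high and a low set. Cebpa (121 CPM per kilobase) and Hnf4a (106) were the highest. Foxa3 (25.8), Cebpb (21.5), Foxa2 (17.4) and Prox1 (16.6) followed, and Nr5a2 (7.10), Foxa1 (7.06) and Onecut1 (5.45) were the lowest. Exon length of the annotated gene stands in here for the transcripts used, which were not resolved.

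**Figure D1:**
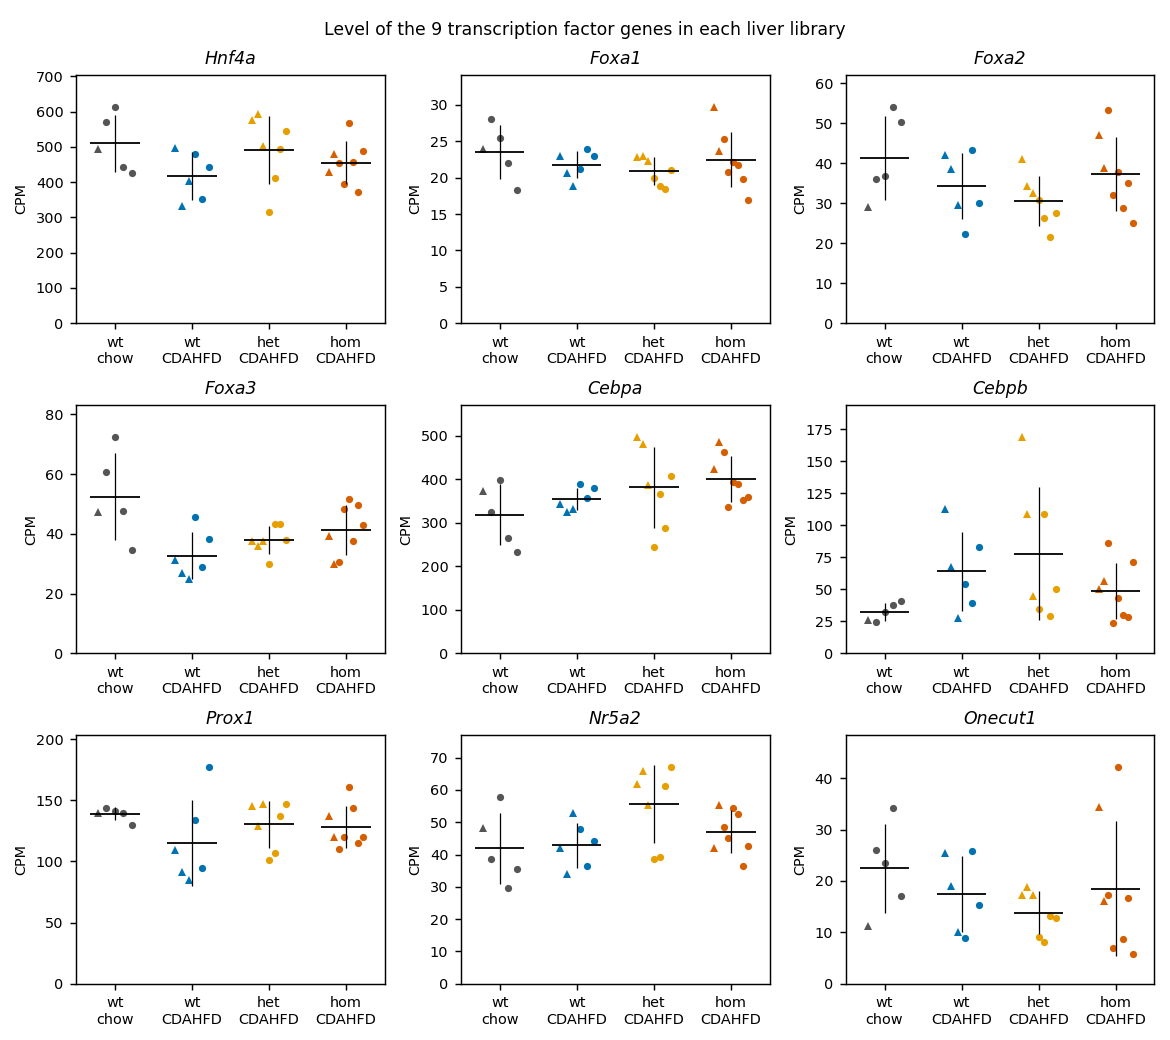
Level of each of the 9 genes in every library, in CPM on a linear axis from 0, by group. Circles and triangles are libraries from the higher and the lower range of library names, the horizontal line is the group mean and the vertical line is ± 1 SD. Foxa3 stood highest in wildtype chow and lowest in wildtype CDAHFD, and Cebpb and Onecut1 spread widely within the CDAHFD groups.

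The first question was what the diet did to these factors in wildtype liver. Foxa3 fell, and it was the only 1 of the 9 genes called (11.1%, 0 higher and 1 lower). Of all genes tested, 27.1% were called, 14.8% higher and 12.2% lower, so the share among the 9 was not above the background. Calls are at an adjusted p under 0.05 in edgeR's quasi-likelihood test, with Benjamini-Hochberg adjustment over all 17104 genes. The 9 log2 fold changes had a median of -0.27, with 6 below and 3 above 0, against a median of -0.01 over all genes tested.

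Foxa3 encodes a FOXA protein that is abundant in adult liver. Its levels in wildtype chow were 47.3, 60.7, 72.4, 47.6 and 34.6 CPM, and in wildtype CDAHFD the lowest was 24.8, the median 30.2 and the highest 45.7. All 6 CDAHFD libraries lay below the chow mean and 4 of them below every chow library, so the groups overlapped through chow sample 5 and 2 CDAHFD libraries. The log2 fold change was -0.68 ± 0.17 (SE; 5 chow and 6 CDAHFD libraries), or 0.49 to 0.79 times the chow level as a 95% interval, with an edgeR adjusted p of 0.00392. The fall was called without any 1 library of either group. Within the higher range of library names the change was -0.51 (edgeR adjusted p = 0.15) and within the lower range, which holds 1 chow library, -0.77 (0.0664). The 10 hepatocyte markers moved the same way in part: 5 were called lower and none higher. Some of those not called had a higher mean on the diet. The summed level of the 10 was 113324 to 148531 CPM in chow and 76038 to 119998 in wildtype CDAHFD. Albumin alone made up most of this sum, with means of 79822 CPM in chow and 55356 in wildtype CDAHFD. The 10 macrophage markers were all called higher, at summed levels of 229 to 418 CPM in chow and 505 to 944 in wildtype CDAHFD. The part of either in the Foxa3 value was not tested, and in a whole-liver sample fewer hepatocytes and less RNA per hepatocyte cannot be told apart.

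The other FOXA genes were not called on the diet. Foxa1, which with Foxa2 starts liver development, had group means of 23.5 ± 3.67 (SD, n = 5) and 21.8 ± 1.88 CPM (n = 6), with a log2 fold change of -0.11 ± 0.11 and a 95% interval of 0.79 to 1.09 times the chow level. Foxa2, also a factor of glucose and lipid metabolism in fasting, had 41.3 ± 10.5 and 34.3 ± 8.27 CPM, a log2 fold change of -0.27 ± 0.19 and an interval of 0.63 to 1.10. Whether Foxa3 changed more than its paralogs was not tested.

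Cebpb, the C/EBP gene induced by cytokines and liver injury, had the largest fold change of the 9, but it was not called. Its chow levels were 26.1, 24.7, 32.3, 37.6 and 41.0 CPM. In wildtype CDAHFD the lowest level was 28.1, the median 60.6 and the highest 113 CPM. Of the 6 CDAHFD libraries, 4 lay above all chow libraries and the other 2 within the chow range. The log2 fold change was 0.99 ± 0.43, an interval of 1.07 to 3.67 times the chow level, with an unadjusted p of 0.0303 and an edgeR adjusted p of 0.0916. A fit on these 2 groups alone, without the knockout libraries, gave a log2 fold change of 0.98 and an edgeR adjusted p of 0.0305. Neutrophil markers were called higher on the diet in 3 of 5 tested, beside 14.8% of all genes tested. The summed level of all 6 genes was low, at 4.58 to 7.59 CPM in chow and 7.04 to 25.5 in wildtype CDAHFD. Cebpb is also expressed in myeloid cells, and the part of those cells was not tested.

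Cebpa, which restrains hepatocyte growth and drives metabolic genes, had chow levels of 373, 326, 398, 265 and 234 CPM. In wildtype CDAHFD its levels stood between 325 and 390 CPM, within the chow range. The log2 fold change was 0.15 ± 0.15 with an edgeR adjusted p of 0.501. Set against Cebpa in the same library, Cebpb had 8.11% of the Cebpa CPM in the median chow library (range 7.02% to 17.5%), 17.3% in wildtype CDAHFD (8.45% to 33.0%), 14.2% in heterozygous (10.2% to 34.0%) and 11.4% in homozygous libraries (7.07% to 19.9%). These ranges overlapped, and the ratio was not tested.

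Hnf4a had chow levels of 495, 571, 613, 444 and 427 CPM. In wildtype CDAHFD the lowest was 332, the median 423 and the highest 496 CPM. All 6 lay below the chow mean, 3 of them below every chow library. The log2 fold change of -0.29 ± 0.15 was not called (edgeR adjusted p = 0.143), and its interval ran from 0.67 to 1.01 times the chow level. Prox1 was within 130 to 144 CPM in the 5 chow libraries, the narrowest range of the 9 genes in that group relative to its level. In wildtype CDAHFD it ran from 84.5 to 177 CPM with a median of 102, and 4 libraries were below and 1 above all chow libraries. Its log2 fold change was -0.28 ± 0.15 (edgeR adjusted p = 0.173), and without wildtype CDAHFD sample 6, the highest library, it was -0.44 and called (edgeR adjusted p = 0.0109). Within the lower range of library names the Prox1 mean was 140 CPM in chow (1 library) and 94.7 in wildtype CDAHFD. Within the higher range these means were 139 and 135 CPM.

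Nr5a2 and Onecut1 complete the set. Nr5a2 stood at 29.6 to 57.7 CPM in chow and 33.9 to 52.8 CPM in wildtype CDAHFD, with a log2 fold change of 0.03 ± 0.16 and an interval of 0.81 to 1.29 times the chow level. Onecut1 stood at 11.3 to 34.1 CPM in chow and 8.90 to 25.8 CPM in wildtype CDAHFD. Its log2 fold change of -0.36 ± 0.43 had an interval of 0.42 to 1.43 times the chow level. For Onecut1, Foxa2, Cebpa and Nr5a2 the group means changed in opposite directions on the diet in the lower and higher ranges of library names. In the lower range, with 1 chow library, they went from 11.3 to 18.2, 29.1 to 36.7, 373 to 334 and 48.2 to 42.9 CPM. In the higher range they went from 25.2 to 16.7, 44.4 to 31.9, 306 to 376 and 40.3 to 42.8 CPM.

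**Figure D2:**
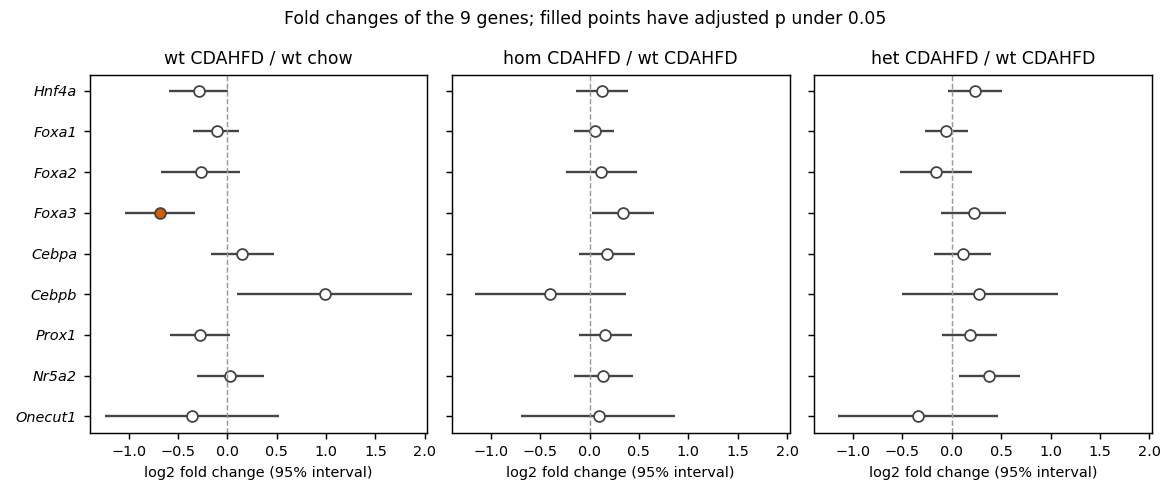
Log2 fold change of each of the 9 genes (points) with its 95% interval (lines) for wildtype CDAHFD over wildtype chow and for each knockout group over wildtype CDAHFD. The filled point is Foxa3 on the diet at -0.68, the only value shown with an edgeR adjusted p under 0.05.

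The antisense gene Hnf4aos, which runs on the minus strand of chromosome 2 (163493807 to 163541720 in GRCm38) against Hnf4a (163506808 to 163572910, plus strand), fell in every comparison with chow. Its span holds the upstream Hnf4a start printed above and not the downstream start, and its annotated exons share 0 bases with those of Hnf4a. Hnf4aos was at 4.24, 2.83, 2.67, 2.16 and 2.06 CPM in wildtype chow, from 92 to 39 counts. In wildtype CDAHFD the lowest level was 0.0856, the median 0.257 and the highest 0.522 CPM, or 2 to 13 counts. In heterozygous libraries the lowest was 0.129, the median 0.468 and the highest 0.700 CPM, and in homozygous libraries 0.177, 0.414 and 0.775. No CDAHFD library of any genotype reached the lowest chow library.

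The log2 fold change of Hnf4aos on the diet in wildtype was -3.31 ± 0.39 (edgeR adjusted p = 1.1e-06), or 0.06 to 0.17 times the chow level. Against the same chow libraries it was -2.63 ± 0.35 in heterozygous and -2.80 ± 0.34 in homozygous liver (edgeR adjusted p = 4.46e-06 and 2.6e-06). Genotype comparisons on the diet were not called for it, at 0.68 ± 0.39 for heterozygous and 0.51 ± 0.39 for homozygous against wildtype (edgeR adjusted p = 0.569 and 0.723). The mean was 4.24 CPM in chow and 0.156 in wildtype CDAHFD within the lower range of library names (1 and 3 libraries), and 2.43 and 0.404 within the higher range (4 and 3). No source used here says if strand entered the counting, so reads from Hnf4a introns and from Hnf4aos cannot be told apart. Prox1os, the antisense gene over 1 of the 2 RefSeq starts of Prox1, shares 133 annotated exon bases with Prox1. Reads from those bases may likewise belong to either gene. Prox1os was at 6.81 to 8.39 CPM in chow and 4.72 to 8.67 CPM in wildtype CDAHFD. It was not called (-0.21 ± 0.15, edgeR adjusted p = 0.323).

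**Figure D3:**
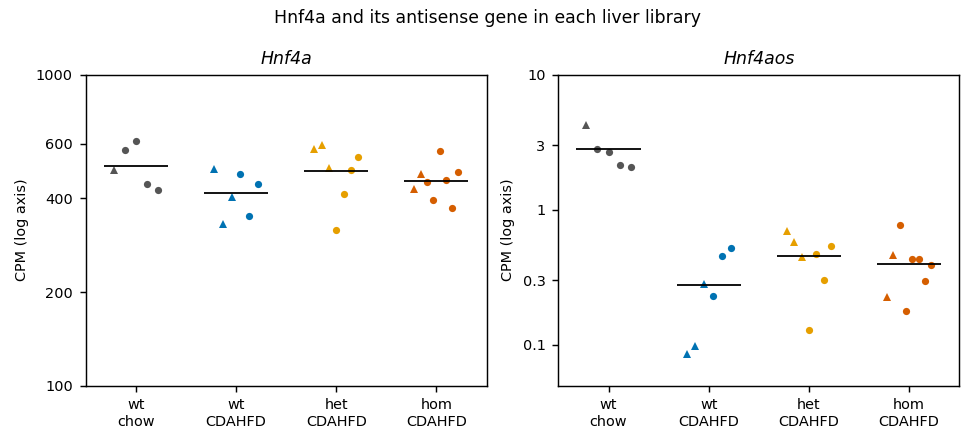
Hnf4a and its antisense gene Hnf4aos in every library, in CPM on log axes, by group. Circles and triangles are libraries from the higher and the lower range of library names and lines are group means. All 5 chow libraries lay above all 21 CDAHFD libraries for Hnf4aos (2.06 CPM or more against 0.775 or less), while the Hnf4a groups overlapped.

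The second question was whether loss of Mtarc1 altered these genes on the diet. None of the 9 was called in homozygous against wildtype CDAHFD, in heterozygous against wildtype CDAHFD, or in homozygous against heterozygous liver. Calls were rare over the whole table too, at 0.00585% of all genes tested (1 gene, Mtarc1) in the first comparison, 0 genes in the second and 0.00585% (Mtarc1 again) in the third. Mtarc1 itself was thus not called in heterozygous against wildtype CDAHFD, at -0.55 ± 0.15 log2 (edgeR adjusted p = 0.569). In 6 of the 7 heterozygous libraries it was below all wildtype CDAHFD libraries, so a change of that size could go uncalled there. At an unadjusted p under 0.05, 1 of the 9 passed in the first (of 1705 genes in all), 1 in the second (of 1444) and 0 in the third (of 1219). DESeq2 called 42, 3 and 12 genes in these comparisons, and limma voom and DESeq2 called 0 of the 9 in each of them.

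Homozygous liver had Foxa3 at 29.8 to 51.8 CPM with a median of 41.0, against 24.8 to 45.7 CPM and a median of 30.2 in wildtype CDAHFD. In 3 of 8 homozygous libraries Foxa3 was above all wildtype CDAHFD libraries. The log2 fold change was 0.34 ± 0.15, an interval of 1.01 to 1.57 times the wildtype CDAHFD level, with an unadjusted p of 0.0388 and an edgeR adjusted p of 0.458. The direction was opposite to that on the diet, but both values share the wildtype CDAHFD libraries, so the pair is no independent sign of a reversal. Cebpb stood at 23.8 to 86.0 CPM in homozygous liver (median 46.9), with a log2 fold change of -0.40 ± 0.37 against wildtype CDAHFD and an interval of 0.45 to 1.29.

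Heterozygous liver had Nr5a2 at 38.5 to 67.0 CPM with a median of 61.3, and 5 of 7 libraries lay above all wildtype CDAHFD libraries. Its log2 fold change was 0.38 ± 0.15, an interval of 1.05 to 1.61 times the wildtype CDAHFD level, with an unadjusted p of 0.0193 and an edgeR adjusted p of 0.569. Hnf4a in heterozygous liver ran from 316 to 593 CPM (median 502), with 4 libraries above and 1 below all wildtype CDAHFD libraries and a log2 fold change of 0.23 ± 0.13 (edgeR adjusted p = 0.569). Its heterozygous and wildtype CDAHFD means were 557 and 410 CPM in the lower range of library names and 442 and 424 in the higher range. For Nr5a2 they were 61.1 and 42.9, and 51.5 and 42.8 CPM. Cebpb ran from 29.3 to 169 CPM in heterozygous liver, and 1 library, heterozygous sample 1, was above every other library of the study. The Cebpb means in heterozygous and wildtype CDAHFD liver were 108 and 69.5 CPM in the lower range of names and 55.8 and 58.9 in the higher. Its log2 fold change for homozygous over heterozygous was -0.68 ± 0.36, an interval of 0.38 to 1.04 (edgeR adjusted p = 0.712).

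For the steadier genes the intervals bound what could have been missed. In homozygous against wildtype CDAHFD, 8 of the 9 intervals lay within 0.5 to 2 times the wildtype level, all but that of Cebpb. Foxa1 had 0.89 to 1.19 times, Hnf4a 0.91 to 1.31, Prox1 0.92 to 1.35, Nr5a2 0.89 to 1.36, Cebpa 0.93 to 1.38 and Foxa2 0.85 to 1.39. Onecut1 had 0.62 to 1.83 times. In heterozygous against wildtype CDAHFD, 7 of the 9 intervals lay within 0.5 to 2 times, all but those of Cebpb and Onecut1.

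Each knockout group on CDAHFD was also set against wildtype chow, a comparison added after the data were seen that mixes diet and genotype and shares the chow libraries with the diet comparison. In heterozygous liver 3 of the 9 were called (33.3%), 2 higher and 1 lower, where 37.2% of all genes were called (19.3% higher and 17.9% lower). Cebpb rose by 1.27 ± 0.42 (edgeR adjusted p = 0.0216), Nr5a2 rose by 0.41 ± 0.16 (0.0465) and Foxa3 changed by -0.46 ± 0.17 (0.0293), all log2. In homozygous liver 0 of the 9 were called at a background of 23.1% (2 had an unadjusted p under 0.05, and no other tool called 1), with Cebpb at 0.59 ± 0.41, Nr5a2 at 0.17 ± 0.16, Foxa3 at -0.35 ± 0.16 and Cebpa at 0.33 ± 0.15. The 3 heterozygous calls were not firm: without wildtype chow sample 2 none of them was left, and Nr5a2 was called in 9 of 23 alternatives, against 19 for Cebpb and 17 for Foxa3. Cebpb in heterozygous liver also lost its call without heterozygous sample 1 (0.96, edgeR adjusted p = 0.0582).

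Ordered by group mean, wildtype chow was highest for Hnf4a, Foxa1, Foxa2, Foxa3, Prox1 and Onecut1 and lowest for Cebpa, Cebpb and Nr5a2. Hnf4a, Foxa3 and Prox1 were lowest in wildtype CDAHFD, while Foxa1, Foxa2 and Onecut1 were lowest in heterozygous liver. Heterozygous liver was highest for Cebpb and Nr5a2, and homozygous liver for Cebpa. For none of the 9 genes did neighbouring groups in this order differ at an edgeR adjusted p under 0.05. Neighbours in a sorted order are close in mean by construction, so this says nothing of groups further apart. Foxa3 was called between its highest and lowest group, wildtype chow and wildtype CDAHFD.

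The 9 genes differed in how much they varied between libraries of the same group. The within-group SD of log2 CPM was 0.75 for Onecut1 and 0.73 for Cebpb, above 95.3% and 94.5% of all genes tested. It was 0.35 for Foxa2, 0.30 for Foxa3, 0.29 for Nr5a2, 0.27 for Cebpa, 0.25 for Hnf4a and Prox1 and 0.19 for Foxa1, against a median of 0.29 over all genes. Onecut1 had its widest range in homozygous liver, from 5.74 CPM in sample 8 to 42.1 in sample 5. Its levels there were 34.4, 16.1, 17.3, 6.95, 42.1, 8.63, 16.7 and 5.74 CPM in samples 1 to 8, so 2 libraries stood above the rest.

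Within groups the 9 genes moved partly together. Over 36 pairs of genes, the correlation of log2 CPM deviations from the group means across the 26 libraries ranged from -0.49 to 0.78 with a median of 0.25, and 8 pairs were above 0.5. These are descriptions: the libraries share the scaling by which CPM was made, and no chance level is attached. Hnf4a moved with Nr5a2 (r = 0.78, Spearman 0.70), Cebpa (0.70) and Prox1 (0.61). Foxa2 moved with Onecut1 (r = 0.69, Spearman 0.78), with r between 0.53 and 0.95 in each of the 4 groups. Foxa2 and Foxa3 moved apart (r = -0.49, Spearman -0.45), with r below 0 in each of the 4 groups. The library with the lowest Foxa2 was also the lowest in Onecut1 in wildtype chow (29.1 and 11.3 CPM), wildtype CDAHFD (22.4 and 8.90 CPM) and homozygous liver (25.1 and 5.74 CPM), but not in heterozygous liver. In chow, sample 5 was the lowest library for Hnf4a, Foxa1, Foxa3, Cebpa and Prox1 and the highest for Cebpb. It also had the highest mitochondrial share of the 26 libraries, 16.25%. Heterozygous sample 4, lowest for 5 of the 9 genes, had the highest share of its group (11.5%). Homozygous sample 5, highest for 4 of them, had the lowest (6.77%). Wildtype CDAHFD sample 1 went the other way, with the highest share (13.01%) and the highest Hnf4a of its group. The part of this share in the correlations was not tested.

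**Figure D4:**
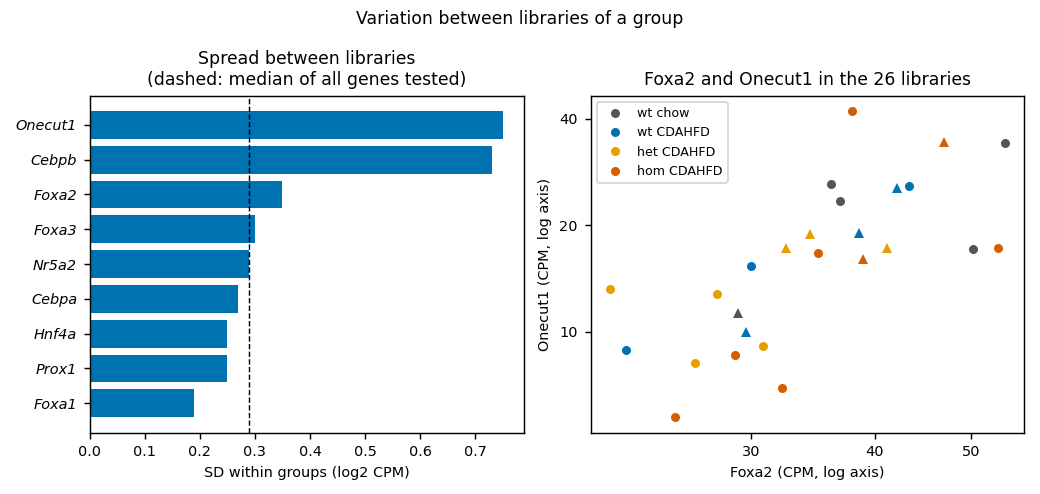
Left, the SD of log2 CPM within groups for each of the 9 genes, with the median of all genes tested (0.29) as a dashed line. Right, Foxa2 against Onecut1 in CPM on log axes in the 26 libraries, coloured by group, with triangles for libraries from the lower range of names. Onecut1 and Cebpb had the widest spread, and libraries low in Foxa2 were mostly low in Onecut1.

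Beyond the set itself, the genes whose log2 CPM followed each member most closely over the 26 libraries were named by their Pearson r. Hnf4a was followed by Cyp2c29 (0.88), F12 and Aldh6a1 (0.87 each), which encode a cytochrome P450, a clotting factor and a mitochondrial dehydrogenase. Nr5a2 was followed by St13, Ppp1cb and Pnpla8 at 0.93 each, and Cebpa by Plpbp and P2ry2 (0.87 each) and Sephs2 (0.86). For Cebpb the closest were Ttll8 and Anks1 (0.79 each) and Cdip1 (0.78), for Prox1 Cstf1 (0.78), Gdpgp1 (0.77) and Klhl25 (0.76), and for Foxa3 Zfp110 and Rrn3 (0.78 each) and Ftsj3 (0.76). Foxa1 was closest to Pcsk1n and Keg1 (0.75 each), Onecut1 to an unnamed gene (0.83), Egfros and Keg1 (0.78 each), and Foxa2 to the predicted genes Gm30262 (0.81) and Gm7652 (0.80). These r values include the differences between groups. Over the 21 CDAHFD libraries alone, 6 of the 27 genes stayed among the 3 closest, and none for Hnf4a, Foxa3, Cebpa and Cebpb; Hnf4a was then closest to Gid4 (0.93), Rab2a (0.91) and Gosr1 (0.89). By Spearman's rho over all 26 libraries 16 of the 27 stayed, and Atg2b (0.89) was closest to Hnf4a.

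Paralogs of the 9 genes were set beside them from a list of 9, of which 7 were tested. On the diet in wildtype 3 were called higher, 1 lower and 3 were not called, with a median log2 fold change of 0.12. Over all genes tested, 14.8% were called higher and 12.2% lower, and no test sets any of the lists here apart from that background. Cebpe, the C/EBP gene of granulocytes, rose from 4.59 to 10.8 CPM (1.23 ± 0.16, edgeR adjusted p = 5.44e-06). Cebpd, an acute-phase C/EBP gene, rose from 5.21 to 11.3 CPM (1.12 ± 0.22, edgeR adjusted p = 4.94e-04). For both, all 6 wildtype CDAHFD libraries lay above all chow libraries. Cebpg rose by 0.43 ± 0.13 log2 (edgeR adjusted p = 0.018), and Onecut2 changed by -0.51 ± 0.17 (0.0263). Of the C/EBP genes, then, those called on the diet were Cebpd, Cebpe and Cebpg, while Cebpa and Cebpb were not, and the differences between them were not tested.

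Of 17 other transcription factors of the hepatocyte network, Onecut2 included, 1 was called higher on the diet in wildtype, 5 lower and 11 not, with a median log2 fold change of -0.30 against -0.01 for all genes and 27.1% of all genes called (14.8% higher, 12.2% lower). Tbx3, a T-box factor of pericentral hepatocytes, fell from 66.2 to 32.5 CPM (-1.03 ± 0.20, edgeR adjusted p = 3.36e-04). Nr0b2 (SHP), the corepressor induced by bile acid signalling, fell from 63.2 to 32.5 CPM (-0.96 ± 0.26, edgeR adjusted p = 0.00647). Atf5, a leucine zipper factor of stress responses, rose from 377 to 693 CPM (0.88 ± 0.24, edgeR adjusted p = 0.00754). No gene of either list was called between genotypes on the diet. Cebpd had the lowest p of the paralogs in homozygous against wildtype CDAHFD, at 6.76 against 11.3 CPM (-0.75 ± 0.19, edgeR adjusted p = 0.181).

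Target genes listed from textbook knowledge went in both directions on the diet, where 14.8% of all genes tested were called higher and 12.2% lower. The lists were drawn up with earlier results of these data known, so their counts are descriptions. Among 21 HNF4A targets 2 were called higher, 8 lower and 11 not (median log2 fold change -0.29). Apoa4, an apolipoprotein induced by lipid load, rose from 326 to 2052 CPM, and Apoc2 rose by 0.72 ± 0.13 log2. Transthyretin (Ttr), a plasma carrier of thyroid hormone, fell from 6530 to 4195 CPM (-0.64 ± 0.13, edgeR adjusted p = 6.9e-04). The 7 FOXA targets had 1 higher, 2 lower and 4 not called (median -0.15). Albumin (Alb) fell from 79822 to 55356 CPM (-0.53 ± 0.15, edgeR adjusted p = 0.0105), and Igfbp1, an insulin-repressed binding protein, rose by 1.69 ± 0.59 log2 (0.036), Ttr being the other gene called. Alb and Ttr are also among the 10 hepatocyte markers.

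Among 16 C/EBP targets 7 were called higher, 2 lower and 7 not (median 0.23), beside 14.8% of all genes called higher and 12.2% lower. The 3 with the lowest p were acute-phase genes. Lcn2 rose from 10.5 to 179 CPM (4.09 ± 0.51, edgeR adjusted p = 3.67e-06), Saa1 from 15.1 to 162 CPM (3.42 ± 0.43, edgeR adjusted p = 3.68e-06) and Saa2 from 9.48 to 117 CPM (3.63 ± 0.46, edgeR adjusted p = 4.25e-06), each with all 6 wildtype CDAHFD libraries above all chow libraries. Saa1 and Saa2 are close copies of each other, and reads may have been split between them, and Lcn2 is also made by neutrophils. Of 7 NR5A2 targets 1 was higher, 2 lower and 4 not called (median -0.03): Nr0b2 and Abcg5 fell (Abcg5 from 177 to 118 CPM) and Scarb1 rose by 0.52 ± 0.19 log2. Fetal and ductal genes had 3 of 11 called higher and none lower (median 0.30), a share called that is near the 27.1% of all genes and so no result about the list. Those called were H19 (1.20 to 7.88 CPM), Krt23 (1.31 to 5.75 CPM) and Spp1 (62.9 to 103 CPM). In the 3 genotype comparisons no gene of these lists was called.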

How the data were processed

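Total RNA of mouse liver was sequenced after library preparation with an NEBNext Ultra II kit, per the labels' protocols. The table the authors deposited holds estimated counts per gene, not normalized. Per the submitters' processing notes, cutadapt 3.5 and Salmon 1.4.0 and the builds GRCm39 and mm39 were used; how transcripts were summed to genes and whether strand was used are not given in the sources used here. Of the values above 0, 54.4% were whole numbers (tolerance 1e-09). Symbols were matched by ID for 51475 of 55642 genes (92.5%). Totals per library were 19.73 to 29.91 M counts, and no column was left unused (0).

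Rounded counts entered edgeR 4.0.16 (R 4.3.3): filterByExpr by group, TMM scaling, and robust quasi-likelihood F tests on all 26 libraries and 4 groups in 1 fit, with Benjamini-Hochberg adjustment over the 17104 genes tested and calls at an adjusted p under 0.05. The SE is the absolute log2 fold change divided by the square root of F, and intervals are 95%. Log2 CPM for spread and correlations used a prior count of 2. The 9 genes and all lists were chosen with earlier results of these data known. Named are the 9 genes, Mtarc1, antisense genes of the 9, up to 3 called genes with the lowest p per list and comparison (or the 1 with the lowest p), and the 3 genes most like each. A gene that this rule names is not reported here. Sample numbers are not stated to pair libraries, and the main fit used no pairing. Same-numbered libraries of other groups had r of deviations from -0.37 to 0.32, with 16 of 34 over 0.1. Libraries with other numbers had r from -0.36 to 0.46, with 55 of 217 over 0.1, so some shared structure by number is not excluded. No libraries of the same group were duplicates (chi-square per degree of freedom at least 16.6 over 74 pairs within groups). Pairs from different groups were not checked in this way.

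Alternatives were DESeq2 1.42.0, limma voom 3.58.1, RLE scaling, TMM without mitochondrial genes, no filter on low counts, at least 1 CPM in 5 libraries, only the groups compared, library name range as a covariate or each range alone, a replicate block, and leaving out each library.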

Additional observations from a re-analysis of the deposited data

How the results depend on the processing

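No value reversed among the alternatives run. Of 1584 alternative values for the 9 genes and their antisense genes, 1545 kept their direction and their side of the threshold or were not called in either setting (61 of them with the opposite sign), 28 lost a call and 11 gained one. The Foxa3 call on the diet held in 20 of 22 alternatives (edgeR, DESeq2 or limma adjusted p from 0.00101 to 0.15), with both exceptions in a single range of library names, and that of Hnf4aos in 22 of 22.

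Genes of the 9 called on the diet numbered 1, but 2 when only the 2 groups were fitted and 0 within either range of library names; leaving out 1 library gave 1 to 2. In homozygous liver against chow the count was 0, and 0 to 1 with a library left out (Cebpa without chow sample 3, Foxa3 without chow sample 5). In heterozygous liver against chow it was 3, but 1 with no filter on low counts (Cebpb), 1 in the higher range of names (Foxa2), 0 in the lower range, and 0 to 4 with a library left out.

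Over all genes, the diet calls (4630) were 2264 in the higher range and 418 in the lower range, where chow has 1 library that is assumed to vary like the others. Homozygous against wildtype CDAHFD gave 1 call, 42 with DESeq2, 2 in the lower range and 1 to 4 with a library left out, the 4 without wildtype CDAHFD sample 4. Heterozygous against wildtype gave 0 and 3 with DESeq2; homozygous against heterozygous gave 1, 12 with DESeq2 and 0 in the lower range. Against chow, homozygous (3953) and heterozygous liver (6361) gave 7 and 28 in the lower range. The causes were not tested. The replicate block gave 2 calls for homozygous against wildtype CDAHFD, took the Nr5a2 call in heterozygous liver against chow (edgeR adjusted p = 0.067), and 7 of 25 libraries were closest to one of their own number. The rarest values, Hnf4aos at 2 to 17 counts in CDAHFD libraries, are limited by depth. None of 44 checks (Dixon tests on the values of 1 group at a time) for a single library far from its group marked one (0). In groups this small such a test can miss one, and some calls above depended on 1 library.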
